A study of Mus musculus with 18 samples.

Results

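The genes described here are 54 listed genes that copy DNA and separate chromosomes: the helicase subunits and loading factors of replication origins, the enzymes of the replication fork, the enzymes that supply deoxynucleotides, the cyclins, kinases and transcription factors of the cycle, and the proteins of the mitotic spindle, its checkpoint and cell division. They were taken by symbol, and 53 of the 54 had a probe set on the array, out of 12393 genes tested in all. The gene without one was Ccnb1, which encodes cyclin B1. Each gene was read from 1 probe set, the brightest on average over the 18 arrays.

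The study asked how engineered nanoparticles alter the activation of macrophages. Bone marrow cells of C57BL/6 mice aged 4 to 6 weeks were grown in medium with 20% conditioned medium of L929 cells, a fibroblast line whose medium supplies macrophage colony-stimulating factor, and the adherent cells were plated again in medium for which the labels list serum and no conditioned medium. There were 6 groups of 3 arrays, 18 arrays in all. CON cells received medium only. LPS cells received medium for 24 h and then 10 ng/ml of Escherichia coli O111:B4 lipopolysaccharide (LPS), a bacterial cell wall component sensed by Toll-like receptor 4, for 4 h. Silica cells received 50 nm amorphous silica particles for 24 h and then fresh medium for 4 h, and SPIO cells received 33 nm iron oxide particles in the same way. Silica-LPS and SPIO-LPS cells received the particles for 24 h and then LPS for 4 h. Both particles are labelled as given at 25 mg/ml. The labels name no genetic alteration in any group. The arrays of a group are labelled as biological replicates, and the labels do not say whether these came from separate mice, so p-values cover only how far these cultures differ.

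A cell that prepares to divide loads a ring of 6 MCM proteins onto replication origins with the help of Cdc6 and Cdt1, and geminin, the product of Gmnn, binds Cdt1 to keep origins from being loaded again. E2F transcription factors switch on many of these loading, fork and nucleotide genes before DNA is copied. Genes of mitosis are switched on later, by a complex that binds a short element called the cell cycle genes homology region (CHR) together with NF-Y, which binds CCAAT boxes. Macrophages grown from marrow proliferate in response to macrophage colony-stimulating factor, and LPS is known to stop this growth. In an RNA extract of a whole culture, a lower signal can come from fewer cycling cells or from less RNA per cycling cell, and these cannot be told apart here.

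Promoter sequence shows how the members divide by these elements. RefSeq promoter windows of assembly GRCm38.p6, from 250 bases before to 50 bases after each annotated start, were matched by symbol for 43 of the 53 members. Both strands were searched for the CHR letters TTTGAA, for the E2F letters TTTGGCGC, TTTCGCGC and TTCCCGCC, and for the CCAAT box letters CCAAT. The stretches below are the 250 bases before the start of 4 members. They are shown because the whole windows of these members hold E2F letters, CHR letters or both. Capitals mark every match on either strand, and a match on the opposite strand reads as its reverse complement (ATTGG for CCAAT, GCGCGAAA for TTTCGCGC). In Mcm6 a TTTGGCGC and a GCGCGAAA overlap by 4 letters and make 1 run of capitals.
Mcm6, an MCM helicase subunit, chr1:128359706-128359955, minus strand: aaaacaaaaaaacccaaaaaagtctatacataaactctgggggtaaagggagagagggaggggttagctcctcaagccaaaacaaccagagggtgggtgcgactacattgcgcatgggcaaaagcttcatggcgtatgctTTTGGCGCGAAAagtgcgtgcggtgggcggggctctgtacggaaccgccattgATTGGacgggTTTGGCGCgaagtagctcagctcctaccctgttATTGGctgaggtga
Cdk1, the kinase that drives entry into mitosis, chr10:69352913-69353162, minus strand: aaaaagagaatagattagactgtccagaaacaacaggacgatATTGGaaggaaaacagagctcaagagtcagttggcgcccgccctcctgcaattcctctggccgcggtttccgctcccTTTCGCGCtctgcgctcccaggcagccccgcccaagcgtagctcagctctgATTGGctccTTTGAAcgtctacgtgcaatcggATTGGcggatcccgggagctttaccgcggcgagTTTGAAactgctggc
Ccnb2, which encodes cyclin B2, a partner of Cdk1, chr9:70421555-70421804, minus strand: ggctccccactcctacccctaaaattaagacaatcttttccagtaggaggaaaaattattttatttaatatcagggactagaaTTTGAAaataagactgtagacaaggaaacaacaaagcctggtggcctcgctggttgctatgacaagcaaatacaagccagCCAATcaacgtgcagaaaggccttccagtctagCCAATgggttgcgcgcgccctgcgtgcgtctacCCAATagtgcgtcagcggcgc
Plk1, a mitotic kinase, chr7:122159185-122159434, plus strand: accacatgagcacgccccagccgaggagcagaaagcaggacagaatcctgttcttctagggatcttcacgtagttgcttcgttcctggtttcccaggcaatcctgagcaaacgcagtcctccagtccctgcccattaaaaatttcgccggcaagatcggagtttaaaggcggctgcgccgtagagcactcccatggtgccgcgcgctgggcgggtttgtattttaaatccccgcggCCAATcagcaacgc

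The Mcm6 stretch held 3 E2F matches, at 110, 106 and 47 bases before the start, and no CHR match. The Cdk1 stretch held both kinds, with CHR letters 71 and 15 bases before the start and E2F letters 131 bases before it. Ccnb2 had CHR letters 167 bases before the start and again at base 5 after it, which lies outside the printed stretch, and CCAAT letters at 87, 54 and 21 bases before the start. The CHR letters of Plk1 lay at base 31 after the start, outside the printed stretch, with CCAAT letters 14 bases before the start. The E2F letters were found in the windows of 10 of 19 replication members (origin, fork and nucleotide genes; 52.6%), in 0 of 19 mitosis members (mitotic kinases, checkpoint, spindle and division genes) and in 4.8% of the windows of 9887 genes tested. The CHR letters were found in 14 of 19 mitosis members (73.7%), in 3 of 19 replication members (15.8%) and in 13.0% of the windows of genes tested. CCAAT letters were found in 84.2% of mitosis members, 63.2% of replication members and 38.1% of genes tested. Over the windows of all 27025 RefSeq genes with one, the shares were 3.0% for E2F, 18.1% for CHR and 37.9% for CCAAT letters. These are matches of letters, not measured binding.

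**Figure D1:**
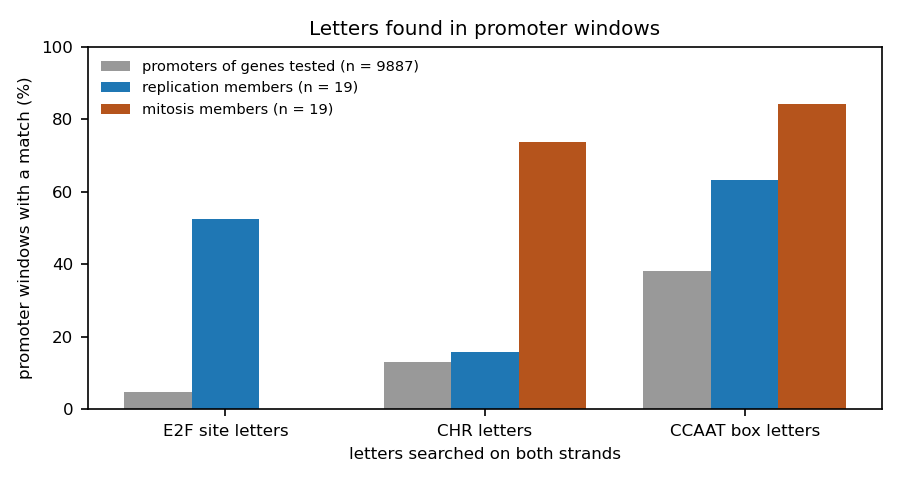
Share of promoter windows (in percent, vertical axis) that held each kind of letters (horizontal axis), with 1 bar for the genes tested (n = 9887), 1 for replication members (n = 19) and 1 for mitosis members (n = 19). E2F letters stood in 52.6% of replication and in 0 mitosis windows, and CHR letters in 73.7% of mitosis and 15.8% of replication windows.

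Over the whole series, arrays of the same group correlated at 0.997 to 0.999 across genes and arrays of different groups at 0.946 to 0.998. The mean signal of the 12393 genes lay between -0.05 and 0.01 of the CON mean on every array (log2). The 10 macrophage genes of a marker list were all at a group mean of 7 or more in every group, led by Lyz2 (lysozyme) at 14.4 in CON. The lists for red cell precursors, B cells and T and NK cells had summed levels (sums of linear signals) of at most 292.8 in CON arrays, against 69440 to 70110 for the macrophage list. The macrophage list moved with the groups, with a summed level of 72560 to 73140 in LPS and 67800 to 68540 in SPIO. In LPS against CON 70% of its 10 genes were called lower and 20% higher (36.1% and 22.2% of all genes). In SPIO against CON 60% were called lower and 30% higher (14.2% and 19.6% of all genes). Granulocyte and stromal markers were present and moved with the groups too. On 12 measured neutrophil and granulocyte precursor genes, the summed level was 22570 to 24080 in CON, 24450 to 24810 in LPS, 20340 to 23150 in Silica, 23720 to 24440 in Silica-LPS, 16180 to 16830 in SPIO and 17680 to 18250 in SPIO-LPS, and 9 of the 12 were called lower and 1 higher in SPIO against CON. The higher sum in LPS does not show a rise of the list as a whole. Of the 12, 41.7% were called lower in LPS against CON (Prtn3, Ltf, S100a8, S100a9 and Mmp8) and 16.7% higher (Camp and Lcn2). These shares compare with 36.1% and 22.2% of all genes. Lcn2 had the largest difference of the list there, 1.93. Levels within this list varied in CON, where 7 of the 12 genes were at a group mean of 7 or more. Ctsg (cathepsin G) stood at 5.26 and Elane (neutrophil elastase) at 5.55 there. Ltf, Camp and Ngp stood at 9.44, 9.87 and 11.6, and S100a8, a calcium-binding protein of neutrophils, at 13.1. On 12 fibroblast and stromal genes, led by Col1a2 (a type I collagen chain) at 13.5, the summed level was 38290 to 38940 in CON, 31320 to 32580 in LPS, 40480 to 42960 in Silica, 32490 to 32940 in Silica-LPS, 31590 to 32430 in SPIO and 25390 to 26170 in SPIO-LPS. That sum follows the brightest genes: in LPS against CON 7 of the 12 were called lower and 4 higher (Dcn, Lum, Pdgfra and Pdgfrb). These shares were 58.3% and 33.3%, against 36.1% and 22.2% of all genes. The mean log2 level of the 12 was 9.28 in CON and 9.31 in LPS. In SPIO against CON 7 were called lower (58.3%, against 14.2% of all genes) and 0 higher (against 19.6% of all genes). On 8 marrow progenitor genes the summed level was 1388 to 1447 in CON, 720.2 to 746.7 in LPS, 1510 to 1577 in Silica, 732 to 784.8 in Silica-LPS, 1082 to 1177 in SPIO and 597.2 to 656.1 in SPIO-LPS. Most of that sum was Sox4, at 10.1 in CON and 8.76 in LPS (log2). In LPS against CON 2 of the 8 were called lower (Sox4 and Hoxa9) and 2 higher (Myb and Meis1), with a median of 0.13. Each share was 25%, against 36.1% and 22.2% of all genes. The part of these other cells in the results below was not tested. A larger difference between the 3' and 5' probe sets of a transcript is a sign of RNA breakdown. For Gapdh it was 0.648 to 0.721 (log2) in CON, 0.485 to 0.573 in LPS, 0.539 to 0.579 in Silica, 0.395 to 0.482 in Silica-LPS, 0.451 to 0.500 in SPIO and 0.334 to 0.462 in SPIO-LPS. For Actb it was 0.576 to 0.607 in CON, 0.316 to 0.409 in LPS, 0.604 to 0.639 in Silica, 0.416 to 0.466 in Silica-LPS, 0.640 to 0.667 in SPIO and 0.511 to 0.537 in SPIO-LPS.

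The members ranged widely in level. In CON arrays Pcna, the sliding clamp of DNA polymerases, had the highest log2 signal of the 53 (11.8, above 97.4% of the genes tested). Rrm2, the regulated subunit of ribonucleotide reductase, stood at 10.3. Tyms, thymidylate synthase, was lowest at 3.42, above 10.4% of the genes tested, and its other 2 probe sets were dimmer still. Signals of different genes come from different probes and are not compared further.

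Averaged over the members, every array of the other groups was below the CON mean. Averaged over 22 replication members, the log2 signal relative to the CON mean was -0.49 to -0.39 on the LPS arrays, -0.14 to -0.02 on Silica, -0.65 to -0.55 on Silica-LPS, -0.38 to -0.31 on SPIO and -0.91 to -0.82 on SPIO-LPS. Averaged over 22 mitosis members, it was -0.13 to -0.10 on LPS, -0.20 to -0.02 on Silica, -0.27 to -0.23 on Silica-LPS, -0.62 to -0.56 on SPIO and -0.79 to -0.67 on SPIO-LPS. The LPS arrays were thus below the SPIO arrays for the replication members and above them for the mitosis members, with no overlap in either case. For the replication members the nearest LPS and SPIO arrays stood at -0.39 and -0.38, and with cyclic loess the groups overlapped, at -0.34 to -0.27 on LPS and -0.38 to -0.33 on SPIO. For the mitosis members cyclic loess gave 0.03 to 0.05 on LPS, above the CON mean, and -0.66 to -0.60 on SPIO. SPIO-LPS arrays were the lowest for both sets, but for the mitosis members they overlapped SPIO under cyclic loess, at -0.64 to -0.54. Silica array 1 stood apart from the other Silica arrays, at -0.02 for both sets.

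**Figure D2:**
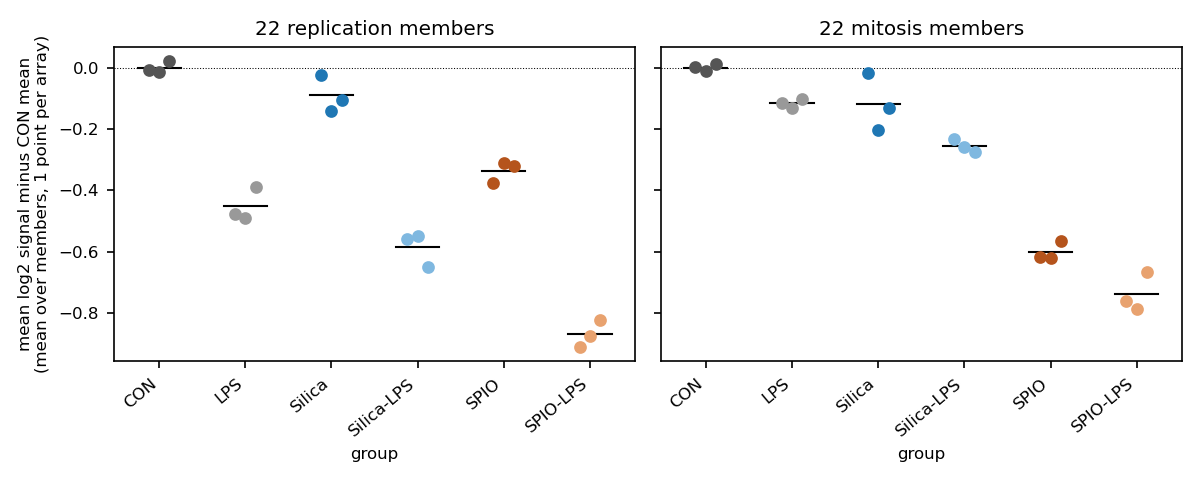
Mean log2 signal minus the CON mean (vertical axis) over 22 replication members (left) and 22 mitosis members (right), with 1 point per array, a bar at the mean of the 3 arrays of each group (horizontal axis) and a dotted line at 0. LPS arrays lay at -0.49 to -0.39 on the left and -0.13 to -0.10 on the right, and SPIO arrays at -0.38 to -0.31 and -0.62 to -0.56.

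**Figure D3:**
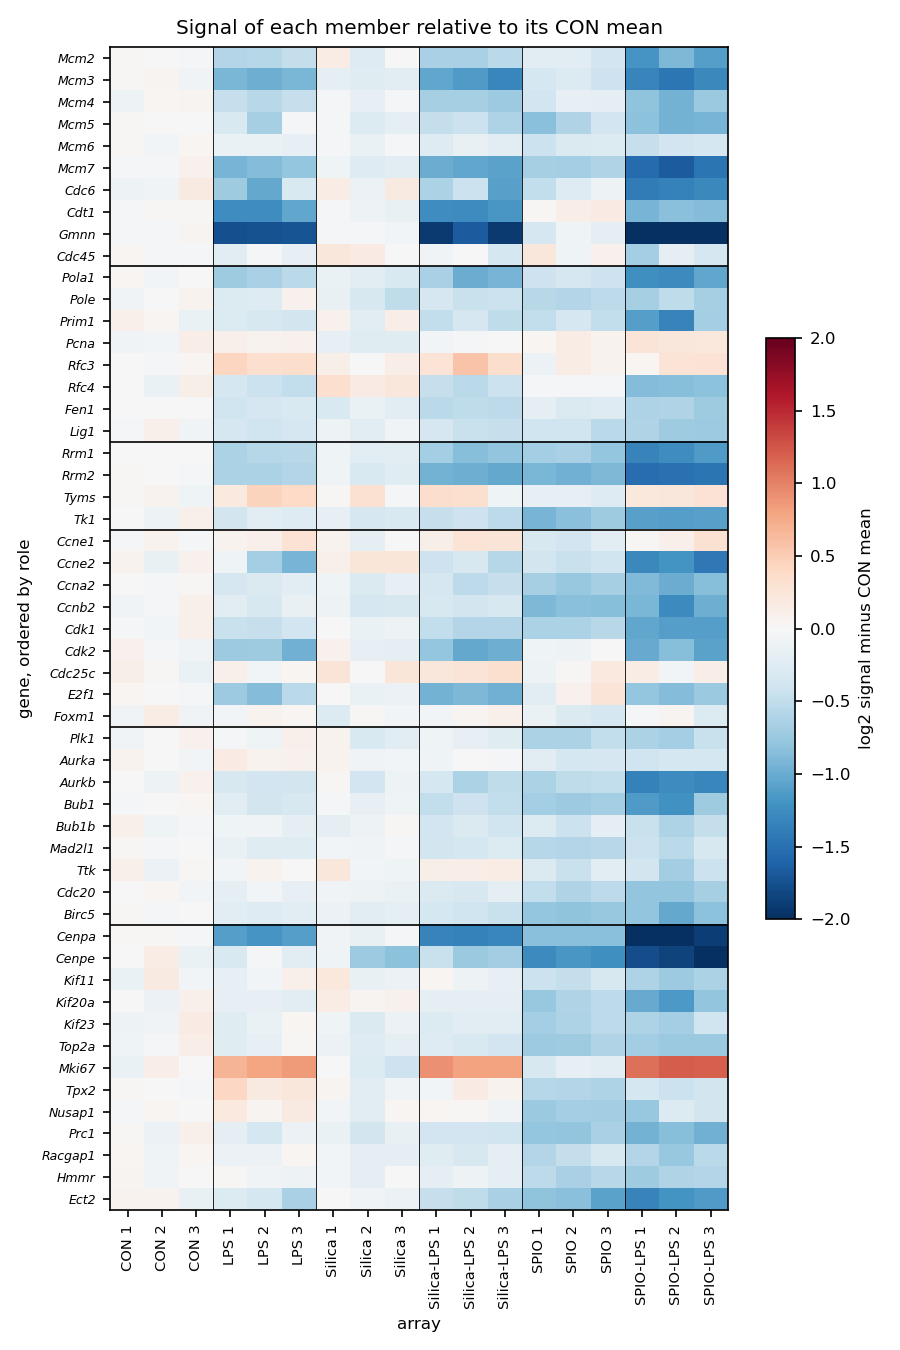
Log2 signal of each of the 53 members (rows, grouped by role with lines between roles) minus its CON mean on each of the 18 arrays (columns), with colours that end at -2.0 and 2.0. Gmnn and Cenpa were among the darkest on the LPS-treated arrays, most mitosis members (lower rows) were pale on LPS and blue on SPIO arrays, and Mki67 was red on every LPS-treated array.

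LPS alone lowered 9 of the 10 origin genes, which include Gmnn, whose product restrains loading. The share of mitosis members called lower, 36.4%, was near that of all genes. In LPS against CON, 31 of 53 members were called lower and 4 higher, at an adjusted p below 0.05 over all genes, while 36.1% of all genes tested were called lower and 22.2% higher. The median log2 difference was -0.23 over the members and -0.01 over all genes. Of the 31, the 3 arrays of each group did not overlap for 29. That count is given without the one over all genes and comes from the arrays that gave the calls. It does not set the members apart. With cyclic loess normalization between arrays, 20 members were called lower and 9 higher, and all genes split into 3620 lower and 3272 higher, against 4469 and 2747 here. Both 3' to 5' measures were lower on the LPS arrays than on the CON arrays, as given above, and their part in these differences was not tested.

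Among the 10 origin genes, 9 were called lower in LPS, with a median of -0.61. Gmnn showed the largest difference of all members. Its log2 signal was 9.24, 9.23 and 9.31 on the CON arrays and 7.50, 7.52 and 7.54 on the LPS arrays. It fell by 1.74 (SE 0.08; adjusted p = 6.62e-12), and the groups lay far apart. Cdt1, the loading factor that geminin binds, read 9.92, 9.98 and 9.99 in CON and 8.73, 8.73 and 8.93 in LPS. It fell by 1.17 (SE 0.06; adjusted p = 3.39e-11), and its second bright probe set fell by 0.95. The helicase subunits Mcm3 and Mcm7 were lower by differences of -0.93 and -0.86. Cdc6, the other loading factor, was dim, at 4.92, 4.96 and 5.21 in CON and 4.32, 4.01 and 4.72 in LPS, and fell by 0.68 (SE 0.18; adjusted p = 0.00316). The MCM subunit Mcm6 changed least of the genes called in this role, with 9.72, 9.65 and 9.74 in CON and 9.57, 9.56 and 9.54 in LPS. Its difference of -0.15 (adjusted p = 0.0242) became 0.03 under cyclic loess, and it missed the threshold without CON array 1, CON array 3 or LPS array 3 (adjusted p = 0.0658, 0.0836 and 0.0617). The call of Mcm5, another MCM subunit, was also not made in every alternative fit. Cdc45, a helicase cofactor, was the 1 origin gene not called, at -0.13.

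Of the 8 fork genes, 5 were called lower and 1 higher. Pola1, the catalytic subunit of the primase-associated polymerase, fell by 0.63 (1.55-fold; adjusted p = 4.29e-06). Rfc3, a subunit of the clamp loader, rose by 0.37 (adjusted p = 0.00131), while the clamp loader subunit Rfc4 fell by 0.42. Pcna read 11.71, 11.74 and 11.91 in CON and 11.88, 11.86 and 11.88 in LPS, a difference of 0.09 that did not pass the test (adjusted p = 0.153). Among the 4 nucleotide genes Rrm2 went from 10.35, 10.34 and 10.30 to 9.70, 9.70 and 9.74. It fell by 0.62 (1.53-fold; adjusted p = 2.24e-08), and Rrm1 and Tk1 (thymidine kinase) were called lower with it, Tk1 not under cyclic loess. Tyms rose by 0.35 (adjusted p = 0.0105), at a signal near the bottom of the array, and the mean of its 3 probe sets was not called.

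Among the 9 cyclins, kinases and factors measured, 6 were called lower and 0 higher. Cdk2, the kinase of S phase entry, had the largest fall, 0.80 (1.75-fold; adjusted p = 7.92e-07). E2f1, an activator of S phase genes, read 7.03, 6.98 and 6.94 in CON and 6.26, 6.11 and 6.44 in LPS, and fell by 0.71 (adjusted p = 9.29e-06). Cdk1 went from 9.23, 9.22 and 9.37 to 8.84, 8.81 and 8.89 and fell by 0.43 (adjusted p = 2.81e-06). The 2 cyclins E, partners of Cdk2, differed from each other. Ccne1 read 6.63, 6.74 and 6.65 in CON and 6.74, 6.77 and 6.97 in LPS and was not called (0.16, adjusted p = 0.128). Ccne2 read 6.68, 6.46 and 6.70 and 6.52, 5.94 and 5.69, with LPS array 1 within the CON range, and fell by 0.56 (adjusted p = 0.00366). Foxm1, a transcription factor of mitosis genes, read 6.61, 6.82 and 6.61 and 6.62, 6.75 and 6.72, a difference of 0.02.

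Of the 22 mitosis members, 8 were called lower by LPS and 2 higher, and 12 were not called. Their share called lower, 36.4%, was near the 36.1% of all genes, so the count does not set them apart. The median was -0.12, and with cyclic loess it was 0.04, with 3 called lower and 5 higher. Cenpa, the histone of centromeres, had the largest fall among them, with 9.66, 9.65 and 9.59 in CON and 8.52, 8.45 and 8.53 in LPS. It fell by 1.13 (2.19-fold; adjusted p = 2.57e-11). Ect2, a gene of cell division, was also called lower, with 7.12, 7.12 and 6.91 in CON and 6.78, 6.69 and 6.41 in LPS. Aurkb, the kinase of the chromosomal passenger complex, had the largest fall of the mitotic kinases and checkpoint genes, 0.36 (adjusted p = 0.00256). Plk1 did not separate from CON, at 7.80, 7.88 and 7.96 in CON and 7.86, 7.80 and 7.98 in LPS (difference 0.00 in size, with a 95% half-width of 0.19, adjusted p = 0.988). Mki67, which encodes the proliferation antigen Ki-67, went the other way. Its signal was 9.21, 9.48 and 9.35 in CON and 10.03, 10.13 and 10.20 in LPS, and it rose by 0.77 (1.71-fold; adjusted p = 1.32e-06). Tpx2, a spindle assembly factor, rose by 0.28 (adjusted p = 0.00338), though its dimmer probe set differed by 0.02 and the mean of both was not called.

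**Figure D4:**
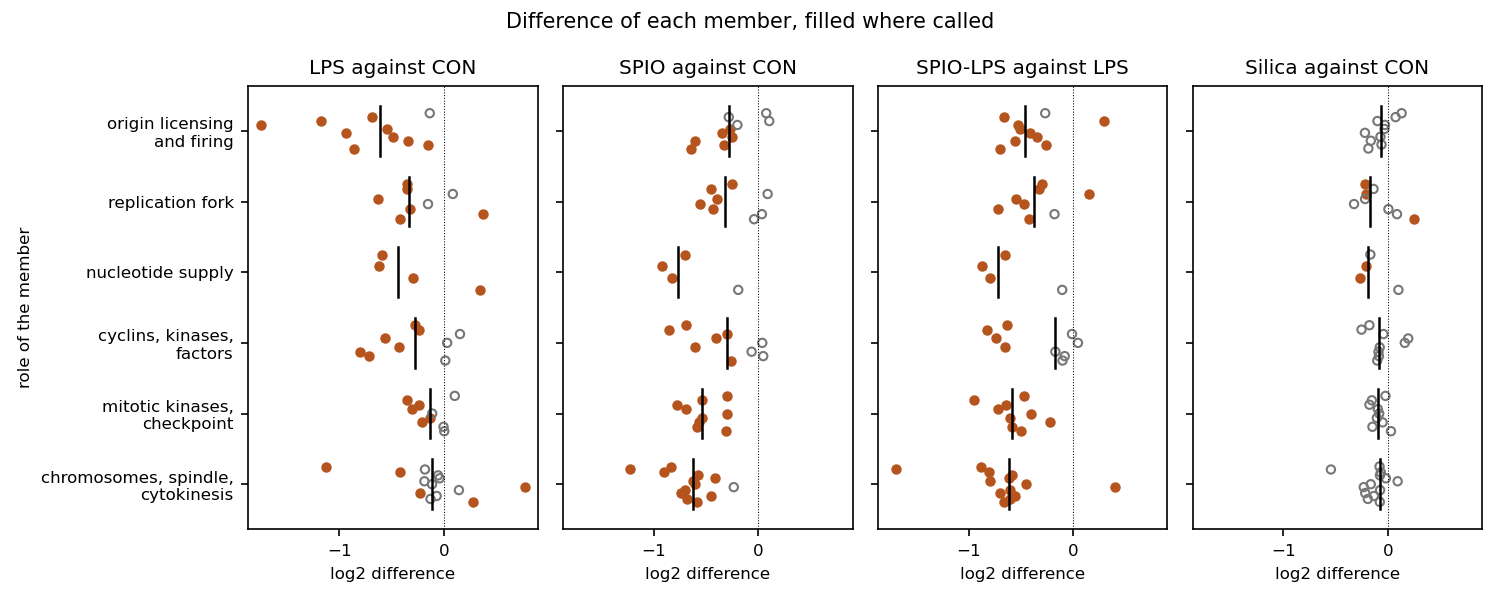
Log2 difference (horizontal axis) of each member in 4 comparisons (panels), by role (vertical axis), with filled points for members called at an adjusted p below 0.05, open points for the others, and a bar at the median of each role. The median of the origin genes was -0.61 in LPS against CON and -0.28 in SPIO against CON, while that of the chromosome, spindle and division genes was -0.11 and -0.63.

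Iron oxide alone lowered 21 of the 22 mitosis members and 14 of the 22 replication members. In SPIO against CON, 41 of 53 members were called lower and 0 higher, while 14.2% of all genes were called lower and 19.6% higher. The median was -0.45 over the members and -0.01 over all genes. The arrays of both groups did not overlap for any of the 41. Again this count is without the one over all genes and comes from the arrays that gave the calls. Cyclic loess also gave 41 lower and 0 higher: 39 of the calls were kept, Ccne2 and Foxm1 were lost (adjusted p = 0.0573 and 0.0507), and Gmnn and Mki67 were gained (adjusted p = 0.0145 and 0.0265). The SPIO and LPS comparisons share the CON arrays. In the same SPIO arrays the macrophage, granulocyte and stromal marker sums were also lower than in CON, as given above. The Gapdh 3' to 5' difference was lower there as well, and the Actb difference was higher.

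All 9 mitotic kinases and checkpoint genes were called lower, with a median of -0.54. Birc5 (survivin, a passenger complex subunit) had the largest fall of these, 0.78 (1.71-fold; adjusted p = 2.51e-08). Plk1 read 7.80, 7.88 and 7.96 in CON and 7.24, 7.25 and 7.38 in SPIO, and fell by 0.59 (SE 0.09; adjusted p = 8.74e-05). Its SPIO arrays were below all CON and LPS arrays. Of the 13 chromosome, spindle and division genes, 12 were called lower, with a median of -0.63. Cenpe, a kinesin of the kinetochore, read 6.28, 6.44 and 6.15 in CON and 5.02, 5.13 and 5.06 in SPIO. It fell by 1.22 (2.34-fold; SE 0.15; adjusted p = 1.02e-05), the largest difference of any member in this comparison. Ect2, which triggers the cleavage furrow, went from 7.12, 7.12 and 6.91 to 6.24, 6.21 and 5.98 and fell by 0.91. Cenpa went to 8.80, 8.79 and 8.80 and fell by 0.84. Mki67 was the 1 mitosis member not called, with 9.03, 9.18 and 9.13 in SPIO (difference -0.24, adjusted p = 0.0549). With cyclic loess it was called, and all 22 mitosis members were lower.

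Of the 9 cyclins, kinases and factors, 6 were called lower. Ccnb2 read 8.30, 8.34 and 8.47 in CON and 7.48, 7.54 and 7.52 in SPIO, and fell by 0.86 (1.81-fold; adjusted p = 8.3e-07). Cdk1 read 8.65, 8.64 and 8.71 in SPIO and fell by 0.61 (adjusted p = 2.99e-07). The weakest calls were for Ccne1, with 6.36, 6.29 and 6.46 in SPIO (fell by 0.30, adjusted p = 0.0114), Ccne2, with 6.24, 6.16 and 6.22 (fell by 0.41, adjusted p = 0.0454), and Foxm1, with 6.54, 6.40 and 6.33 (fell by 0.26, adjusted p = 0.0452). Ccne1 missed the threshold without CON array 2 or SPIO array 2 (adjusted p = 0.0505 and 0.0526). Ccne2 missed it without any 1 of the 3 Silica or the 3 SPIO arrays, among others (adjusted p up to 0.124), and Foxm1 without any 1 of the 3 CON arrays, among others (adjusted p up to 0.192). E2f1 read 6.76, 7.07 and 7.25 in SPIO, on both sides of the CON range, and was not called (0.05, adjusted p = 0.768).

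Of the 10 origin genes 6 were called lower by iron oxide, all of them MCM subunits. Mcm7 read 9.74, 9.73 and 9.86 in CON and 9.12, 9.10 and 9.18 in SPIO and fell by 0.64 (1.56-fold; adjusted p = 9.75e-07), and Mcm6 read 9.27, 9.41 and 9.43 and fell by 0.33 (adjusted p = 0.000118). The weakest of the 6, Mcm2 and Mcm4, lost their calls without CON array 1, CON array 2 or SPIO array 3 (Mcm2, adjusted p = 0.0777, 0.0683 and 0.12) and without SPIO array 1 (Mcm4, adjusted p = 0.0539). Cdt1 and Gmnn, which had the largest falls under LPS, were not called: Cdt1 read 9.99, 10.09 and 10.12 in SPIO (0.10, adjusted p = 0.19) and Gmnn 8.93, 9.17 and 9.08 (-0.20, adjusted p = 0.0521). Cdc6, at 4.53, 4.78 and 4.93, differed by -0.28 (adjusted p = 0.237). Of the fork genes 5 of 8 were called lower, led by Pole, the leading-strand polymerase, which fell by 0.56 (1.47-fold; adjusted p = 0.000255). Pcna read 11.83, 11.94 and 11.85 in SPIO and differed by 0.09 (adjusted p = 0.201). Of the nucleotide genes 3 of 4 were called lower. Rrm2 went from 10.35, 10.34 and 10.30 in CON to 9.41, 9.37 and 9.44 in SPIO, and fell by 0.92 (1.90-fold; SE 0.05; adjusted p = 2.09e-09). Its other 2 probe sets fell by 0.61 and 0.99. Tk1 fell by 0.82.

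Iron oxide before LPS lowered most members below LPS alone. In SPIO-LPS against LPS, 42 members were called lower and 3 higher, while 14.6% of all genes were called lower and 18.2% higher. The median was -0.56 over the members and 0.01 over all genes. Of the 45 called, 43 were called in each of the 26 alternative fits that tested them, and the other 2 were Mad2l1 (a spindle checkpoint protein, lost in the fit on the compared groups alone) and Pcna. SPIO against CON and SPIO-LPS against LPS have no array in common. Of the 41 members called lower in the first, 39 were called lower in the second (95.1% of 41 and 92.9% of 42). Over all genes 1057 were called lower in both (60.1% of the first list and 58.6% of the second).

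Of the 22 mitosis members 21 were called lower under LPS and Mki67 was called higher. Cenpe read 6.00, 6.27 and 6.08 in LPS and 4.52, 4.44 and 4.30 in SPIO-LPS, and fell by 1.69 (3.23-fold; SE 0.15; adjusted p = 2.95e-07). Aurkb read 6.57, 6.51 and 6.52 in LPS and 5.54, 5.64 and 5.58 in SPIO-LPS, and fell by 0.95 (1.93-fold; adjusted p = 5.66e-07). Plk1 read 7.25, 7.20 and 7.44 in SPIO-LPS and fell by 0.58. Mki67 read 10.03, 10.13 and 10.20 in LPS and 10.46, 10.56 and 10.54 in SPIO-LPS. It rose by 0.40 (1.32-fold; adjusted p = 0.00276), and its SPIO-LPS arrays were the highest of the series. Cenpa, at 7.56, 7.54 and 7.75, fell by 0.89.

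Among the replication members 17 of 22 were called lower and 2 higher. Gmnn read 6.86, 7.09 and 7.02 in SPIO-LPS and fell by a further 0.53 (adjusted p = 5.06e-05). Mcm7 read 8.24, 8.11 and 8.31 and had the largest fall of the origin genes, 0.70 (adjusted p = 3.58e-07). Mcm6, at 9.24, 9.32 and 9.35, fell by 0.26, and Cdc6, at 3.63, 3.68 and 3.75, by 0.66 (adjusted p = 0.00812). Cdt1 was higher after iron oxide, with 8.73, 8.73 and 8.93 in LPS and 9.03, 9.13 and 9.09 in SPIO-LPS, and rose by 0.29 (adjusted p = 0.00102). Prim1, the primase subunit, had the largest fall of the fork genes, 0.72 (1.65-fold; adjusted p = 0.000468). Pcna, at 12.046, 12.019 and 12.002, rose by 0.15 (adjusted p = 0.0332). That call was lost without any 1 of the 3 LPS or the 3 SPIO-LPS arrays (adjusted p = 0.0543 to 0.0944), and under cyclic loess. Rrm2, at 8.81, 8.84 and 8.87, fell by 0.87 (1.83-fold; adjusted p = 3.25e-09).

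Of the 9 cyclins, kinases and factors 4 were called lower: Ccnb2, Ccne2, Cdk1 and Ccna2 (cyclin A2). Ccnb2 read 8.14, 8.05 and 8.22 in LPS and 7.45, 7.10 and 7.39 in SPIO-LPS and fell by 0.82 (1.77-fold; adjusted p = 1.26e-06). Ccne2, at 5.33, 5.42 and 5.18, fell by 0.74, and Cdk1, at 8.24, 8.18 and 8.17, by 0.65. Ccne1 read 6.70, 6.77 and 6.97 and differed by -0.01, E2f1 read 6.21, 6.11 and 6.24 and differed by -0.08, and Foxm1 read 6.65, 6.73 and 6.40 and differed by -0.10, and these 3 were not called.

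**Figure D5:**
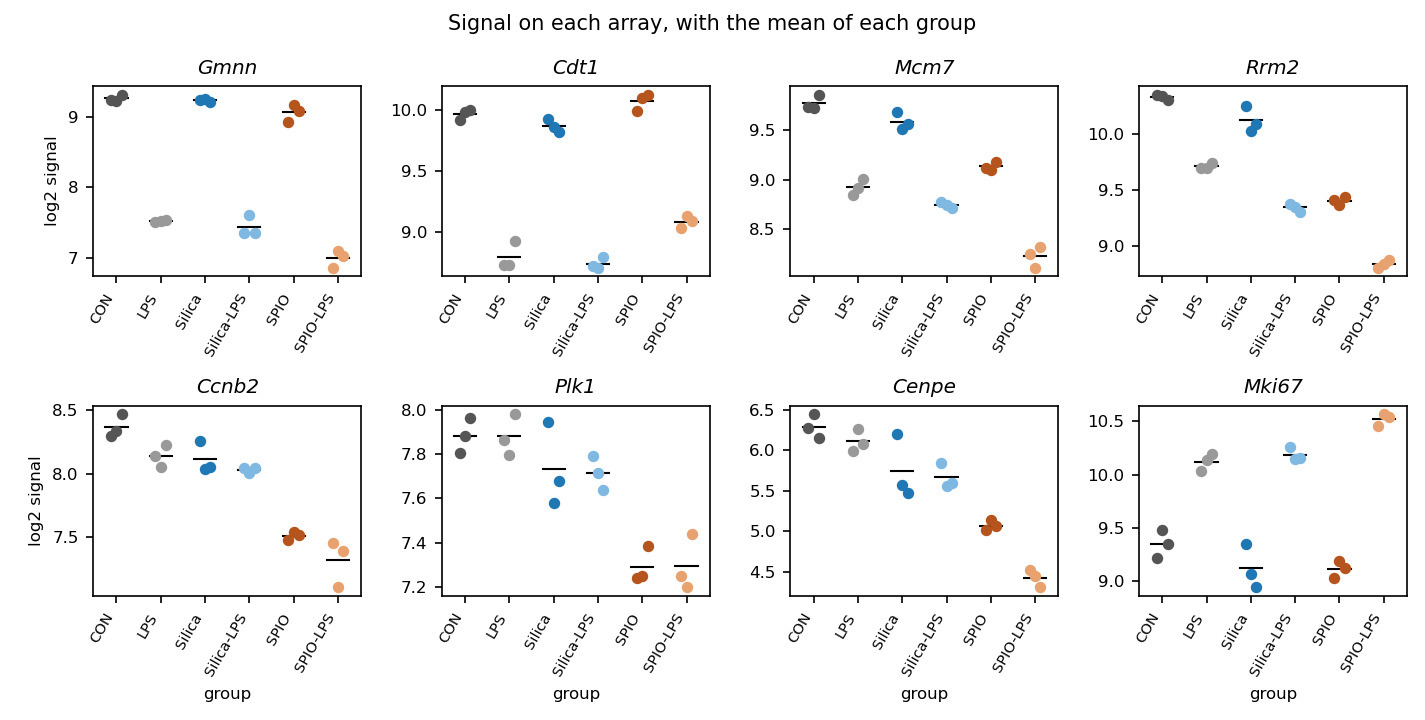
Log2 signal (vertical axis, with its own range in each panel) of 8 members on each array, with 1 point per array and a bar at the mean of the 3 arrays of each group (horizontal axis). Gmnn and Cdt1 were lower on all arrays with LPS than on all others, Plk1 and Ccnb2 separated the SPIO and SPIO-LPS arrays from the rest, Mcm7, Rrm2 and Cenpe were lowest in SPIO-LPS, and Mki67 was highest there.

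Silica moved few of the members past the threshold. In Silica against CON 4 were called lower and 1 higher, while 1.57% of all genes were called lower and 2.45% higher. The median over the members was -0.09 and over all genes 0.00 in size. Of the 53, 18 had an unadjusted p below 0.05. That count is given without the one over all genes, so it does not set the members apart. Tk1 fell by 0.27 (1.21-fold; adjusted p = 0.0305), Fen1, the flap nuclease of the lagging strand, by 0.22 (adjusted p = 0.0231), Pcna by 0.21 (adjusted p = 0.0265) and Rrm2 by 0.21 (adjusted p = 0.0316). Rfc4 rose by 0.24 (adjusted p = 0.0358). Pcna read 11.62, 11.55 and 11.55 in Silica against 11.71, 11.74 and 11.91 in CON, and Rrm2 read 10.25, 10.02 and 10.09 against 10.35, 10.34 and 10.30. Silica array 1 came closest to CON for both genes. Not 1 of the 5 was called in all 26 alternative fits. Without CON array 1, 2 or 3 the count of calls was 1, 2 or 1, and without Silica array 1, 2 or 3 it was 6, 2 or 0.

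The largest differences in Silica did not pass the test. Cenpe read 6.21, 5.57 and 5.47 in Silica (-0.55, adjusted p = 0.0545), with array 1 within the CON range and the others below it. Pole read 6.20, 6.03 and 5.85 against 6.29, 6.34 and 6.43 in CON (-0.32, adjusted p = 0.0702). Of the 10 origin genes and the 9 cyclins, kinases and factors, limma called 0, with medians of -0.07 and -0.09. Ccnb2 read 8.26, 8.04 and 8.05 (-0.25, adjusted p = 0.11) and Mcm3 8.25, 8.19 and 8.22 against 8.46, 8.49 and 8.37 in CON (-0.22, adjusted p = 0.0711), and neither overlapped CON. The arrays of Mcm5, Mcm7 and Ccna2 also lay below all CON arrays, and those of Ccne2 above. Gmnn read 9.24, 9.25 and 9.21, Mcm6 9.67, 9.58 and 9.69, Cdc6 5.18, 4.92 and 5.21 and Cdk1 9.28, 9.13 and 9.17. Ccne1 read 6.73, 6.49 and 6.66, Ccne2 6.71, 6.86 and 6.85, E2f1 6.97, 6.86 and 6.86 and Foxm1 6.41, 6.70 and 6.62. For Plk1, at 7.95, 7.58 and 7.68, and Mki67, at 9.34, 9.07 and 8.94, array 1 was the highest of the 3. The 95% interval of a difference had a median half-width of 0.17 over all genes, and the values of Cenpe, Pole and Ccnb2 show that larger differences also missed the threshold.

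Under LPS, silica pretreatment gave 1 call among the members. In Silica-LPS against LPS, Rrm2 read 9.38, 9.35 and 9.31 in Silica-LPS and 9.70, 9.70 and 9.74 in LPS, and fell by 0.37 (1.29-fold; SE 0.05; adjusted p = 0.00111). The groups were apart, and the call was made in all 26 alternative fits. Of all genes 0.976% were called lower and 1.89% higher. The median over the members was below 0 in each role. An unadjusted p below 0.05 was found for 25 members, again a count without the one over all genes. Cenpe had the largest difference, -0.45, with 5.84, 5.56 and 5.60 in Silica-LPS, and was not called (adjusted p = 0.128).

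Set directly against silica, iron oxide gave lower signals for most members. In SPIO against Silica 35 were called lower and 2 higher (11.6% and 14.6% of all genes), and in SPIO-LPS against Silica-LPS 37 lower and 3 higher (12.9% and 12.2% of all genes). Without LPS, Ect2 read 7.04, 6.98 and 6.92 in Silica and 6.24, 6.21 and 5.98 in SPIO, a fall of 0.84 (1.79-fold; adjusted p = 9.26e-06). Cenpa read 9.56, 9.48 and 9.61 and 8.80, 8.79 and 8.80, a fall of 0.76 (1.69-fold; adjusted p = 6.8e-08). Pcna was higher in SPIO than in Silica by 0.30 (adjusted p = 0.000316), and this call was made in every alternative fit. Cdt1 was higher by 0.20 (adjusted p = 0.0162), a call lost without Silica array 3, SPIO array 2 or SPIO array 3 (adjusted p = 0.0688, 0.057 and 0.0726). Under LPS, Cenpe fell by 1.24 (2.37-fold; adjusted p = 1.32e-05) and Ccne2, which read 6.19, 6.29 and 6.05 in Silica-LPS, by 0.87 (1.82-fold; adjusted p = 0.000378). Cdt1 (0.34), Mki67 (0.33) and Pcna (0.27) were called higher there. By role, the largest falls without LPS were those of Mcm7 (0.46, adjusted p = 5.17e-05), Prim1 (0.44, adjusted p = 0.0203), Rrm2 (0.71, adjusted p = 6.13e-08), Ccnb2 (0.61, adjusted p = 4.7e-05) and the checkpoint kinase Bub1 (0.60, adjusted p = 0.000163). The Prim1 call was lost without Silica array 1 or 3 or SPIO array 1 or 3 (adjusted p = 0.0574 to 0.0866). Under LPS they were those of Cdc6 (0.63, adjusted p = 0.0148), Prim1 (0.59, adjusted p = 0.00314), Tk1 (0.62, adjusted p = 3.7e-06) and Aurkb (0.81, adjusted p = 5.3e-06). The Cdc6 call was lost without Silica-LPS array 1 or 2 (adjusted p = 0.0531 and 0.0778). Both particles are labelled with the same mass concentration and differ in material and size, and these differences cannot be told apart.

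In cells given a particle, LPS lowered 9 of the 10 origin genes after silica (all but Cdc45) and 8 of the 10 after iron oxide (all but Mcm5 and Mcm6). In Silica-LPS against Silica 31 members were called lower and 4 higher (35.8% and 21.5% of all genes), and in SPIO-LPS against SPIO 32 lower and 7 higher (36.7% and 27.3% of all genes). With cyclic loess the counts were 18 and 8, and 21 and 12. LPS against CON and SPIO-LPS against SPIO share no array, and 27 members were called lower in both (87.1% of 31 and 84.4% of 32), where all genes gave 91.4% and 89.7%. Gmnn read 7.35, 7.60 and 7.35 in Silica-LPS and fell by 1.80 from Silica (3.48-fold; adjusted p = 4.39e-12). It fell by 2.07 in SPIO-LPS from SPIO (4.20-fold; adjusted p = 7.46e-13). Cenpa read 8.30, 8.27 and 8.33 in Silica-LPS and fell by 1.25 from Silica and by 1.18 between the SPIO groups. Mki67 read 10.26, 10.15 and 10.15 in Silica-LPS and rose by 1.07 from Silica (2.10-fold; adjusted p = 2.68e-08) and by 1.41 between the SPIO groups (2.65-fold; adjusted p = 8.8e-10). Ccne1 read 6.79, 6.94 and 6.92 in Silica-LPS and rose by 0.45 between the SPIO groups (1.36-fold; adjusted p = 0.000227). By role, Rfc4 had the largest fall of the fork genes (0.72 between the silica groups and 0.80 between the SPIO groups), Rrm2 of the nucleotide genes (0.77 and 0.56), and Bub1 (0.37, not called under cyclic loess) and Aurkb (0.77) of the mitotic kinases and checkpoint genes. E2f1 fell by 0.85 between the silica groups and Cdk2 by 0.91 between the SPIO groups, the largest falls of the cyclins, kinases and factors. Between the silica groups Ccne1 rose by 0.25 (adjusted p = 0.0165), a call lost without Silica array 2, Silica-LPS array 2 or Silica-LPS array 3 (adjusted p = 0.091, 0.0604 and 0.0531). The other rises between the silica groups were 0.31 for Rfc3, not called with the mean of its probe sets, and 0.18 for Pcna (adjusted p = 0.00489), called in every alternative fit. The other rises between the SPIO groups were 0.44 for Tyms, 0.24 for Nusap1 (a spindle protein), 0.21 for Tpx2, 0.15 for Pcna and 0.14 for Mad2l1. The Nusap1 call (adjusted p = 0.0391) was lost without any 1 of the 3 SPIO arrays, SPIO-LPS array 2 or SPIO-LPS array 3 (adjusted p = 0.0625 to 0.208), and the Mad2l1 call (adjusted p = 0.0286) without SPIO array 1, SPIO array 2, SPIO-LPS array 1 or SPIO-LPS array 3 (adjusted p = 0.0556 to 0.153). The Tpx2 value was -0.05 with the mean of its probe sets, and its call was lost without SPIO array 3, SPIO-LPS array 1 or SPIO-LPS array 3 (adjusted p = 0.0577, 0.0602 and 0.0512). The Pcna call was lost without SPIO array 1, SPIO array 3 or SPIO-LPS array 1 (adjusted p = 0.0651, 0.0535 and 0.0562). Other values in Silica-LPS were 9.44, 9.55 and 9.49 for Mcm6, 11.74, 11.75 and 11.79 for Pcna and 8.79, 8.70 and 8.69 for Cdk1. Plk1 read 7.79, 7.71 and 7.64, E2f1 6.04, 6.08 and 6.01, Cdc6 4.40, 4.60 and 3.94 and Foxm1 6.63, 6.73 and 6.78.

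Whether the particle and LPS act on a gene beyond the sum of their separate log2 differences was tested by an interaction term. For iron oxide 1 member was called lower and 2 higher, while 5.07% and 3.73% of all genes were. Mki67 had the largest term, 0.63 (SE 0.13; adjusted p = 0.00408): LPS gave a difference of 0.77 without and 1.41 with iron oxide. The term of Mad2l1 was 0.34 (adjusted p = 0.00665). Its signal was 8.86, 8.78 and 8.84 in CON, 8.69, 8.59 and 8.59 in LPS, 8.26, 8.25 and 8.27 in SPIO and 8.39, 8.30 and 8.51 in SPIO-LPS, so that LPS arrays were below CON and SPIO-LPS arrays above SPIO. The term of Rfc4 was -0.38 (adjusted p = 0.00997), with 6.86, 6.72 and 6.97 in CON, 6.51, 6.43 and 6.36 in LPS, 6.81, 6.81 and 6.81 in SPIO and 5.99, 6.00 and 6.04 in SPIO-LPS, where SPIO-LPS was lowest. The remaining 50 members were not called. The median half-width of the 95% interval of an interaction was 0.24, and larger departures also missed the threshold, such as -0.41 for Aurkb (adjusted p = 0.0559). For silica 0 members were called by limma, and 0.0161% of all genes were called in either direction. An unadjusted p below 0.05 was found for 3 members, again a count without the one over all genes. The 2 largest silica terms were -0.30 for Rfc4 (adjusted p = 0.412) and 0.30 for Mki67 (adjusted p = 0.681).

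Other genes of the same processes were also counted, from lists of genes that are not members. Of 34 other replication genes 24 were called lower (70.6%, against 36.1% of all genes) and 3 higher in LPS against CON (median -0.45), and 10 lower (29.4%, against 14.2% of all genes) and 5 higher in SPIO against CON (median -0.15). Of 34 other mitosis genes 18 were called lower (52.9%) and 3 higher in LPS (median -0.20), a larger share than the 36.4% of the mitosis members, and 31 lower (91.2%) and 2 higher in SPIO (median -0.48). The difference between these shares was not tested. In SPIO-LPS against LPS the counts were 15 lower and 2 higher for replication and 31 lower and 1 higher for mitosis, where 14.6% of all genes were lower. Single genes departed from their list. Under LPS, Timeless, a protein that steadies stalled forks, rose by 1.87, and Dck (deoxycytidine kinase, which salvages nucleosides) rose by 1.70, while Dnmt1, the maintenance DNA methyltransferase, fell by 1.47. Pttg1 (securin, the inhibitor of separase) rose 2.01-fold, and the condensin subunits Ncaph and Smc4 fell by 0.79 and 0.71. In SPIO against CON, Ube2c, the ubiquitin-conjugating enzyme of the anaphase-promoting complex, fell by 0.87, Stmn1 (stathmin, which destabilises microtubules) by 0.82 and the spindle protein Ckap2 by 0.78. Rfc2, a clamp loader subunit, rose by 0.54 there. Of 23 genes of cell cycle control 10 were called lower and 6 higher in LPS (43.5% and 26.1%, near the 36.1% and 22.2% of all genes), and 8 lower and 2 higher in SPIO (34.8% and 8.7%, against 14.2% and 19.6%). Chek2, a checkpoint kinase of DNA damage, fell by 2.06 in LPS and rose by 0.59 in SPIO. Rbl1 (p107, a relative of the retinoblastoma protein) rose by 1.84 and the phosphatase Cdc25b fell by 1.50 in LPS. In SPIO, Myc, a growth-promoting transcription factor, fell by 0.44.

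The promoter letters can be set beside these differences as a description. The 11 members with E2F letters had a median of -0.43 in LPS against CON, with 10 called lower, and the 32 matched members without them a median of -0.16, with 16 called lower. In SPIO against CON the same groups had medians of -0.39 and -0.50, with 8 of 11 and 25 of 32 called lower. The 19 members with CHR letters had a median of -0.54 in SPIO against CON, with 17 called lower, and of -0.13 in LPS against CON, with 8 called lower. The 24 without them had medians of -0.41 and -0.33, with 16 and 18 called lower. Of all genes 14.2% were called lower in SPIO against CON and 36.1% in LPS against CON. Of the printed promoters, Cdk1, with both kinds of letters, fell by 0.43 in LPS and by 0.61 in SPIO. Plk1, with CHR letters, fell by 0.59 in SPIO and did not differ in LPS beyond its spread. The letters go with the roles of the genes, so role and letters cannot be told apart here.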

How the data were processed

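RNA of 18 macrophage cultures was hybridised to 1-colour Affymetrix arrays, 1 per culture. The authors deposited log2 values, 1 per probe set and array, and the submitters' processing notes name RMA, which corrects background, sets arrays to a common distribution and summarises probes, so a shift shared by all genes cannot be seen. The version of RMA is not given here. Of 22690 probe sets, 64 were controls, 20380 had 1 gene symbol, 691 had several and 1555 none. The probe set with the highest mean over 18 arrays stood for each gene, which gave 12393 genes. With 3 arrays per group, their number limits the precision: the median standard error of a difference was 0.080.

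Groups were compared with limma 3.58.1 in R 4.3.3 (lmFit, 1 mean per group over all 18 arrays, contrasts.fit, eBayes, no replicate block), in 11 contrasts that share arrays. The Benjamini-Hochberg adjustment ran separately in each contrast on all 12393 genes, with calls at an adjusted p below 0.05. SE is the moderated standard error and folds are powers of 2 of the log2 difference. The fit was checked on simulated data. For SPIO against CON it recovered 26.9%, 74.6% and 97% of simulated differences of 0.25, 0.5 and 1, with 9 false calls. For the iron oxide interaction it recovered 13.4%, 43.3% and 93.9%, with 8 false calls.

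The members and lists were chosen with earlier results of these data known. The text gives array values for Mcm6, Rrm2, Pcna, Ccne1, Ccne2, Cdk1, Plk1, Mki67, Foxm1, E2f1, Cdc6 and, per comparison of 2 groups, the 2 members with the largest difference. The largest called member of each role, and at most 3 called genes of each other list, are given at least by their difference or fold. Array values of further members, and the promoter of Ccnb2, were picked after their values were seen. The list of promoters to print had held Ccnb1, without a probe set, and Cdc6, whose window held none of the letters. Where a gene had several RefSeq windows (5 members), the first listed was used. Alternatives were the replicate block, a fit on just the groups compared, a variance trend with robust prior, a filter on dim genes, every probe set or their mean, cyclic loess, array weights and leaving out each array. Deviations of same-numbered arrays correlated at a median of -0.015 over 45 pairs, with 8 above 0.1. Those of differently numbered arrays correlated at a median of -0.002 over 90 pairs, with 18 above 0.1. These values do not show how the replicate numbers were given. Python 3.11.15 was used for joins and figures.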

Additional observations from a re-analysis of the deposited data

Results flagged for a closer look

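For 3 members the response to LPS differed between cells with and without iron oxide by a test of the difference itself, the limma interaction term. Of the members 1.89% were called lower and 3.77% higher, and of all genes 5.07% and 3.73%, so the count does not set the members apart. The term was 0.63 for Mki67, 0.34 for Mad2l1 and -0.38 for Rfc4 (log2; adjusted p = 0.00408, 0.00665 and 0.00997). The Mki67 and Mad2l1 terms were called in all 26 alternative fits, and the Rfc4 term was not called with the mean of its probe sets (-0.34, adjusted p = 0.0629).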

How the results depend on the processing

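With 3 arrays a group, the 95% interval of a difference had a median half-width of 0.17 (log2), and larger differences also missed the threshold, such as -0.55 for Cenpe in Silica against CON. Of 35 members called in LPS against CON, 22 were called in every alternative that tested them, as were 34 of 41 in SPIO against CON, 43 of 45 in SPIO-LPS against LPS, 20 of 35 in Silica-LPS against Silica, 24 of 39 in SPIO-LPS against SPIO, 31 of 37 in SPIO against Silica and 33 of 40 in SPIO-LPS against Silica-LPS. Counts that moved by over 1.5 times were these. In Silica against CON the 5 calls became 0 with the compared groups alone, 9 with a variance trend and robust prior, 9 without the dimmest genes, 2 with the mean of probe sets, 9 with cyclic loess and 14 with array weights. In Silica-LPS against LPS the 1 call became 4 with the trend, 5 without the dimmest genes, 2 with the mean of probe sets and 6 with cyclic loess. In the SPIO by LPS interaction the 3 calls became 5 with the compared groups alone, with the trend and without the dimmest genes. Leaving out each array in turn gave 31 to 36 calls in LPS against CON, 0 to 7 in Silica against CON, 37 to 41 in SPIO against CON, 1 to 3 in Silica-LPS against LPS, 44 to 45 in SPIO-LPS against LPS, 32 to 36 in Silica-LPS against Silica, 32 to 40 in SPIO-LPS against SPIO, 0 in the silica interaction, 3 to 5 in the iron oxide interaction, 32 to 38 in SPIO against Silica and 36 to 41 in SPIO-LPS against Silica-LPS. Directions reversed under cyclic loess for Mcm6 (0.0272 in LPS against CON and 0.0279 in Silica-LPS against Silica), Cdc20 (0.0421 and 0.00865 in the same comparisons) and, in SPIO-LPS against SPIO, Ccnb2 (0.00571) and Prc1 (0.00969), and with the mean of probe sets for Tpx2 in SPIO-LPS against SPIO (-0.0452). The cause was not tested. The fit with the replicate number as a block gave 33 calls in LPS against CON, 6 in Silica against CON and 42 in SPIO against CON. It gave 1 in Silica-LPS against LPS, 45 in SPIO-LPS against LPS and 4 in the iron oxide interaction.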

Other observations

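Of the 53 members, 27 had several probe sets. Of 35 further probe sets of members called in SPIO against CON, 20 were called in the same direction, 0 in the opposite one, and 15 were not called. In LPS against CON the counts were 15, 0 and 14 of 29. In SPIO-LPS against SPIO 1 of 30 was called in the opposite direction, the dimmer probe set of Tpx2.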
